A study of Homo sapiens with 12 samples.

Results

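The cyclin-dependent kinase inhibitor genes and SKP2 were followed in SUM159, a breast cancer cell line of the triple-negative class, across 4 groups. The members are the CIP/KIP inhibitors CDKN1A, CDKN1B and CDKN1C, the INK4 inhibitors CDKN2A, CDKN2B, CDKN2C and CDKN2D, the phosphatase gene CDKN3, and SKP2. They were chosen by symbol and number 9; 7 of them have a row in the deposited comparison tables, which hold 23375 genes between them. Polyadenylated RNA was sequenced in 3 libraries per group: cells with a hairpin against E4F1 (shE4F1) given 140 nM gemcitabine for 24 h, untreated shE4F1 cells, control hairpin (shCTRL) cells given the same dose for the same time, and untreated shCTRL cells. E4F1 is a zinc finger transcription factor and ubiquitin ligase, and gemcitabine is a deoxycytidine analogue that stalls DNA synthesis. All groups were grown with serum, hydrocortisone and insulin and all carry a hairpin. How many hairpins against E4F1 were used, whether the cells were a pool or a clone, and whether libraries came from separate cultures are not given in the labels, so p-values reflect only how these libraries vary, and that variation may be technical.

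CDK inhibitors hold back the cyclin-bound kinases that drive cells from G1 into S phase and through division. The CIP/KIP proteins p21 (CDKN1A), p27 (CDKN1B) and p57 (CDKN1C) bind the cyclin and the kinase together, whereas the INK4 proteins p16 (CDKN2A), p15 (CDKN2B), p18 (CDKN2C) and p19 (CDKN2D) bind CDK4 and CDK6 and keep D-type cyclins off them. p21 is the classical p53 target of the DNA damage response, and p27 is governed largely at the protein level: SKP2, the F-box subunit of an SCF ubiquitin ligase, recognises phosphorylated p27 with the help of the small protein CKS1B. CDKN3 encodes a phosphatase that removes the activating phosphate of CDK2. RNA levels, as measured here, say nothing of these steps at the protein level.

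Stretches of 3 promoters are shown because their genes gave the clearest changes of the family: CDKN1B and CDKN2C, higher with shE4F1, and CDKN1A, higher with gemcitabine. Capitals mark the GC box, spelled GGGCGG, the CCAAT box, spelled as its name, and the core of the ATF/CREB element, spelled TGACGT, the kind of element at which E4F1 was first described in the adenovirus E4 promoter. The sequences are from RefSeq (GRCh38.p14, plus strand), read 5′ to 3′, and positions are counted back from the annotated start site.
CDKN1A, chr6:36678604-36678633, bases -110 to -81: cggggaGGGCGGtcccGGGCGGcgcggtgg
CDKN1B, chr12:12717293-12717322, bases -75 to -46: ggcgGGGCGGctcccgccgccgcaaCCAAT
CDKN2C, chr1:50960705-50960734, bases -40 to -11: cagtcccaagctcccTGACGTctgcatcct
The GC boxes lie at -104 and -94 in CDKN1A, which holds 4 in its window of 250 bases before to 50 after the start. In CDKN1B a GC box lies at -71 and a CCAAT box at -50, and its window holds 3 CCAAT boxes. TGACGT lies at -25 in the first of the 3 CDKN2C start sites and at -207 in the third. The second CDKN2C window holds 6 GC boxes and no TGACGT, and the third holds 1 GC box and 1 CCAAT box besides. Both strands were searched. Of 35116 promoter windows of this length 45.0% hold a GC box, 34.6% a CCAAT box and 7.98% TGACGT, which was found in the windows of no other member; a match of letters is no evidence of binding. Windows matched 8 of the 9 members; CDKN1C was not matched.

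E4F1, the hairpin's target, was checked first. It was 0.503 times the shCTRL level in untreated shE4F1 cells and 0.532 times under gemcitabine in the authors' deposited tables (log2 fold changes -0.99, SE 0.26, and -0.91, SE 0.16). The second call was lost when taken from the other tables (adjusted p = 0.0772). There the same contrast was shE4F1 with gemcitabine against untreated shCTRL, less the drug effect in shCTRL cells. This route has a larger SE. All other contrasts but the untreated shE4F1 effect were likewise rebuilt by adding or subtracting deposited comparisons. The markers of the line were those of mesenchymal cells: the mean normalized count was 53240 to 70720 for VIM and 8887 to 11116 for CD44 over the authors' deposited tables, against 4.95 to 13.1 for ESR1 and 5.21 to 9.23 for CDH1, with no row for PGR or EPCAM, while KRT8 (2558 to 2748), KRT18 (2330 to 2572) and ERBB2 (2496 to 2833) were present. Among markers of blood and endothelial cells, CD3E and CDH5 had no row, CD14 reached at most 12.7 and VWF 7.42, while PTPRC spanned 42.6 to 144 and PECAM1 115 to 197. With shE4F1 PTPRC fell by 2.21 (SE 0.40) in untreated cells and fell by 3.00 (SE 0.27) under gemcitabine, and PECAM1 rose by 1.40 (SE 0.29) and 1.17 (SE 0.20), in the authors' deposited tables. CD14, VWF and CDH1 passed in none of these. Among the line's own markers FN1 rose with shE4F1 by 2.101 (SE 0.19) and 1.78 (SE 0.27), and CD44 by 0.79 (SE 0.15) and 0.68 (SE 0.12), in untreated and treated cells in the authors' deposited tables. VIM fell with shE4F1 by 0.40 (SE 0.14, adjusted p = 0.0111) in untreated cells and was at -0.0074 (SE 0.10) under gemcitabine in those deposited tables of the authors, and ESR1 rose by 1.44 (SE 0.46) under gemcitabine. Markers moved with the drug as well: in shCTRL cells PTPRC rose by 1.142 (SE 0.24, adjusted p = 2.43e-05), VIM fell by 0.68 (SE 0.14, adjusted p = 2.93e-05) and ERBB2 fell by 0.51 (SE 0.16, adjusted p = 0.00886) per the authors' deposited table. The part of these changes in the results below was not tested. In cells measured in bulk, a change in the share of cells in one phase of the cycle and a change of RNA per cell cannot be told apart.

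Values below are the authors' log2 fold changes with their standard error (SE), and "rose" and "fell" mean a Benjamini-Hochberg adjusted p under 0.05 from the authors' DESeq2. Per-library values could not be tied to groups, so levels are group means implied by the mean normalized count and the fold change of each table. They have no spread of their own. The untreated shCTRL level comes out 3 times and differed by up to 1.19-fold between tables for the same gene. From 2 tables each, the gemcitabine level differed by up to 1.02-fold in shCTRL cells and by up to 1.09-fold in shE4F1 cells.

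**Figure D1:**
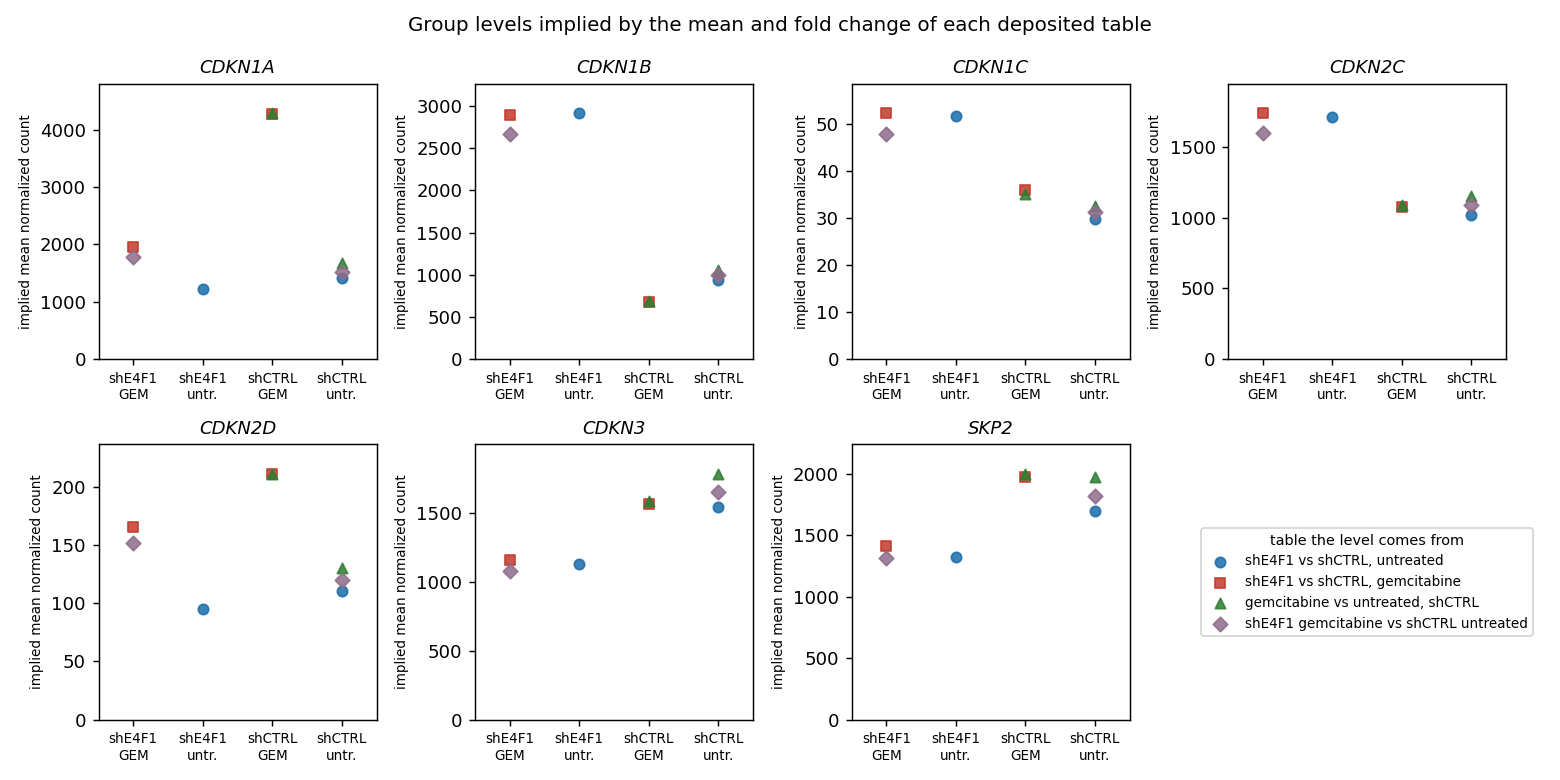
Group levels of the 7 measured members as implied mean normalized counts (linear axes from 0), with 1 point per deposited table that contains the group. CDKN1B and CDKN2C are high in both shE4F1 groups, CDKN1A and CDKN2D are highest in shCTRL cells under gemcitabine, and CDKN3 and SKP2 are lower in both shE4F1 groups.

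Among the CIP/KIP genes CDKN1B (ENSG00000111276, chromosome 12, 12715058 to 12722371, plus strand, GRCh38) showed the largest shE4F1 effect of the family. Its implied level was 2674 to 2895 in shE4F1 cells under gemcitabine and 2917 in untreated shE4F1 cells, against 682 to 685 in shCTRL cells under gemcitabine and 932 to 1054 in untreated shCTRL cells. Both shE4F1 groups thus stood above both shCTRL groups, and the lowest was the shCTRL group given gemcitabine. In untreated cells CDKN1B rose 3.13-fold with shE4F1 in the authors' deposited table, a log2 fold change of 1.65 (SE 0.14, adjusted p = 9.96e-32). Under gemcitabine it rose 4.24-fold in the authors' deposited table (2.08, SE 0.11, adjusted p = 3.33e-78). By the size of the Wald score, the log2 fold change over its SE, that was rank 40 of 22433 genes, and rank 80 of 21567 in untreated cells. The knockdown effect was larger under the drug by 0.44 (SE 0.17), a difference that did not pass (adjusted p = 0.125).

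With gemcitabine CDKN1B fell in shCTRL cells, to 0.650 times the untreated level per the authors' deposited table (log2 -0.62, SE 0.15, adjusted p = 0.000218). In shE4F1 cells the drug effect, taken as the difference of 2 tables, was -0.23 (95% interval -0.62 to 0.17, adjusted p = 1.00). The lower end of that interval lies beside the estimate in shCTRL cells, and whether the drug effects differ is the same contrast as the 0.44 above. The drug and the hairpin together left CDKN1B 2.68-fold above untreated shCTRL cells in the authors' deposited table (1.42, SE 0.15, adjusted p = 1.70e-19). An intronic transcript on the same strand, AC008115.3, overlaps 549 bases of the gene and had a mean of 16.3 to 18.0.

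CDKN1A (ENSG00000124762, chromosome 6, 36676460 to 36687339, plus strand) was highest in shCTRL cells given the drug. Its implied level was 1786 to 1951 in shE4F1 cells under gemcitabine and 1214 in untreated shE4F1 cells, against 4270 to 4287 in shCTRL cells under gemcitabine and 1407 to 1669 in untreated shCTRL cells. The shCTRL group given the drug stood alone at the top, and the other 3 groups lay between 1214 and 1951. CDKN1A rose 2.57-fold with gemcitabine in shCTRL cells per the authors' deposited table (1.36, SE 0.17, adjusted p = 7.48e-14). In shE4F1 cells the drug effect was 0.45 (95% interval -0.04 to 0.94, adjusted p = 0.888). With shE4F1, CDKN1A was at -0.21 in untreated cells in the authors' deposited table (SE 0.17, adjusted p = 0.364) and fell to 0.457 times the shCTRL level under gemcitabine (-1.13, SE 0.13, adjusted p = 6.21e-17).

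CDKN1A was the 1 member whose knockdown effect passed as different under gemcitabine than without it (-0.92, SE 0.22, adjusted p = 0.00144). Of 20923 genes tested, 5.43% passed, 2.81% higher and 2.63% lower. It was the same size, -0.91, when taken as the difference of the drug effects, but with the larger SE of that route (0.30) the call was lost (adjusted p = 0.173). shE4F1 cells under the drug did not differ detectably from untreated shCTRL cells: the authors' deposited table gives 0.24 (95% interval -0.12 to 0.59, adjusted p = 0.341). DINOL, a noncoding RNA, overlaps 951 bases of CDKN1A on the opposite strand and had no row in the tables.

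CDKN1C (ENSG00000129757, chromosome 11, 2883213 to 2885773, minus strand), the imprinted inhibitor, was scarce. Its implied level was 47.8 to 52.3 in shE4F1 cells under gemcitabine and 51.8 in untreated shE4F1 cells, against 35.1 to 35.9 in shCTRL cells under gemcitabine and 29.7 to 32.5 in untreated shCTRL cells. No comparison passed. The authors' deposited tables give 0.80 (SE 0.38, adjusted p = 0.0819) for shE4F1 in untreated cells, and 0.54 (SE 0.31, adjusted p = 0.156) under gemcitabine. Of 4 neighbours with a row in the imprinted region of chromosome 11, KCNQ1OT1, the noncoding RNA of that domain, was the 1 that rose with shE4F1 in untreated cells (0.97, SE 0.21, adjusted p = 1.86e-05 in the authors' deposited table), where 36.7% of all genes changed. Under gemcitabine, where KCNQ1 made a row more, none of 5 passed, against 41.0% of all genes. PHLDA2, an imprinted growth regulator, was the 1 of 4 that rose with gemcitabine in shCTRL cells (0.91, SE 0.25, adjusted p = 0.00218 in the authors' deposited table), a call lost when taken from the other tables (adjusted p = 0.265). The drug changed 28.0% of all genes in shCTRL cells. The region's KCNQ1OT1 is antisense to KCNQ1, and the strand setting of the counting is not given in the sources used here.

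**Figure D2:**
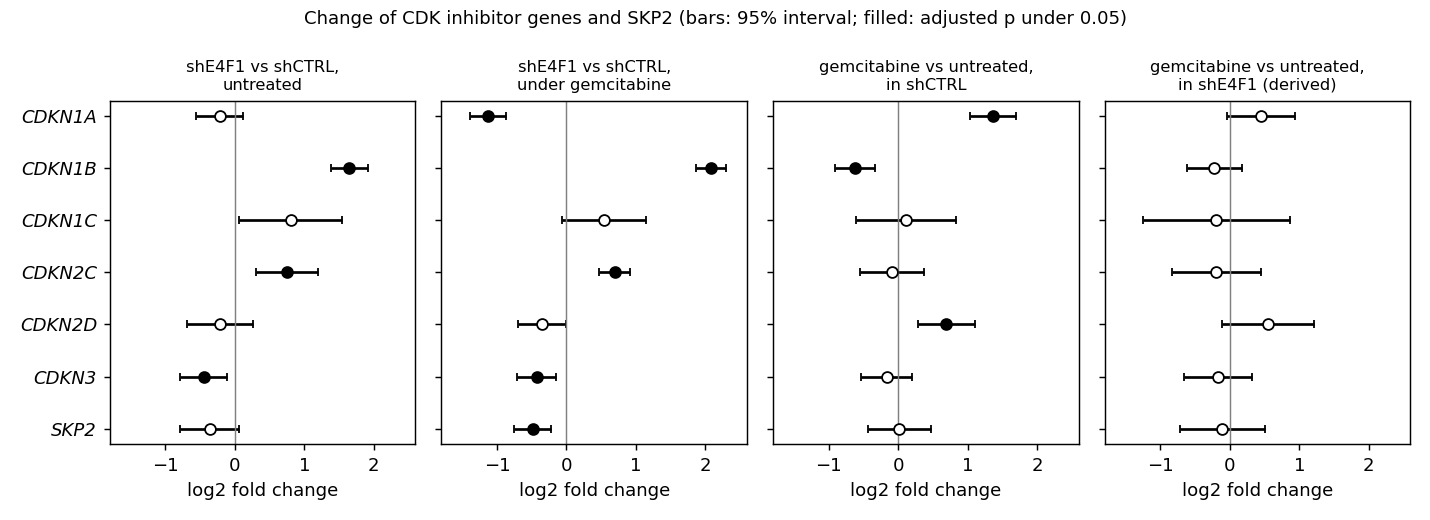
Log2 fold changes of the 7 measured members (rows) in 4 comparisons (panels), with 95% intervals as bars and filled points for an adjusted p under 0.05. CDKN1B and CDKN2C lie right of 0 in both shE4F1 panels, CDKN1A lies at -1.13 in the shE4F1 panel under gemcitabine and at 1.36 in the shCTRL gemcitabine panel, and no point is filled in the derived panel on the right. The intervals of that derived panel are too wide because it counts the untreated shCTRL libraries in both of its tables.

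Of the INK4 genes, CDKN2A (chromosome 9, 21967753 to 21995301, minus strand) and CDKN2B (chromosome 9, 22002903 to 22009363, minus strand) have no row in the 4 tables used here, whose lowest mean normalized count is 2.09, so no change is given for either. A deposited count table lists both genes, but the names of its columns match no label, so it was not used here and no level is given. Their neighbours were low or modest in level. In the authors' deposited tables the mean normalized count was 9.35 to 12.3 for CDKN2B-AS1, the antisense RNA that spans CDKN2B, 25.7 to 32.1 for MTAP, a purine salvage enzyme gene, and 86.8 to 99.7 for KLHL9, while DMRTA1 and IFNE had no row. None of these 3 measured neighbours passed in any of the 6 comparisons, in which 1.11% to 41.0% of all genes did. ELAVL2, an RNA-binding protein gene on the same list, rose with shE4F1 by 1.83 (SE 0.23, adjusted p = 3.69e-14) in untreated cells in the authors' deposited table. It rose by 0.76 (SE 0.17, adjusted p = 6.73e-05) under gemcitabine there, a call lost when taken from the other tables (adjusted p = 0.111).

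CDKN2C (ENSG00000123080, chromosome 1, 50960745 to 50974633, plus strand) was higher in both shE4F1 groups. Its implied level was 1601 to 1741 in shE4F1 cells under gemcitabine and 1717 in untreated shE4F1 cells, against 1078 to 1088 in shCTRL cells under gemcitabine and 1020 to 1156 in untreated shCTRL cells. Both shE4F1 groups thus stood above both shCTRL groups, whereas treated and untreated cells of one hairpin lay close together. The ranges are over tables and show no spread between libraries. CDKN2C rose 1.68-fold in untreated cells (0.75, SE 0.23, adjusted p = 0.00396) and 1.62-fold under gemcitabine (0.69, SE 0.12, adjusted p = 1.71e-08) in the authors' deposited tables. The difference between them was -0.06 (95% interval -0.56 to 0.44, adjusted p = 0.957). The drug effect in shCTRL cells was -0.09 (95% interval -0.55 to 0.37, adjusted p = 0.830) in the authors' deposited table.

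CDKN2D (ENSG00000129355, chromosome 19, 10566462 to 10569059, minus strand) had a higher implied level in treated cells with either hairpin, but the rise passed in shCTRL cells only. Its implied level was 151 to 165 in shE4F1 cells under gemcitabine and 94.98 in untreated shE4F1 cells, against 211 in shCTRL cells under gemcitabine and 110 to 130 in untreated shCTRL cells. The shCTRL group given the drug was the highest. CDKN2D rose 1.62-fold with gemcitabine in shCTRL cells per the authors' deposited table (0.69, SE 0.21, adjusted p = 0.00560). In shE4F1 cells the estimate was 0.55 (95% interval -0.11 to 1.22, adjusted p = 1.00), with an SE that is too large because untreated shCTRL libraries are counted in both tables. With shE4F1 it was at -0.21 (SE 0.24, adjusted p = 0.545) in untreated cells and at -0.35 (SE 0.17, adjusted p = 0.0946) under gemcitabine in the authors' deposited tables. The treated effect less the untreated one was -0.14 (95% interval -0.72 to 0.45, normal test, adjusted p = 0.903). A drug effect on CDKN2D that depends on the hairpin was therefore not shown.

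CDKN3 (ENSG00000100526, chromosome 14, 54396849 to 54420218, plus strand) and SKP2 (ENSG00000145604, chromosome 5, 36151989 to 36184319, plus strand) both had lower implied levels in shE4F1 cells, and the difference passed in both conditions for CDKN3 and under gemcitabine for SKP2. The implied CDKN3 level was 1079 to 1161 in shE4F1 cells under gemcitabine and 1132 in untreated shE4F1 cells, against 1564 to 1590 in shCTRL cells under gemcitabine and 1546 to 1784 in untreated shCTRL cells. That of SKP2 was 1315 to 1414 in shE4F1 cells under gemcitabine and 1324 in untreated shE4F1 cells, against 1975 to 2001 in shCTRL cells under gemcitabine and 1700 to 1973 in untreated shCTRL cells. For each gene both shE4F1 groups lay below both shCTRL groups. CDKN3 fell by 0.45 (SE 0.17, adjusted p = 0.0269) in untreated cells and fell by 0.43 (SE 0.14, adjusted p = 0.00768) under gemcitabine in the authors' deposited tables.

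SKP2 fell by 0.48 (SE 0.14, adjusted p = 0.00145) under gemcitabine in the authors' deposited table. In untreated cells it was at -0.36 (SE 0.22, 95% interval -0.79 to 0.07, adjusted p = 0.195) in the authors' deposited table. These effects differed by -0.12 (95% interval -0.62 to 0.38, adjusted p = 0.899). Gemcitabine in shCTRL cells gave -0.17 (95% interval -0.53 to 0.20) for CDKN3 and 0.02 (95% interval -0.43 to 0.47) for SKP2 in the authors' deposited table.

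Counted together, 3 of the 7 measured members changed with shE4F1 in untreated cells, 2 up (CDKN1B and CDKN2C) and 1 down (CDKN3). The background was 36.7% of 19472 genes tested, 17.5% up and 19.3% down. The median over the members was -0.21, against 0.00 over all genes. Under gemcitabine 5 of 7 changed, 2 up (CDKN1B and CDKN2C) and 3 down (CDKN1A, CDKN3 and SKP2), where 41.0% of 22433 genes did, 20.3% up and 20.8% down; the medians were -0.35 and 0.00. The members are too few for these counts to be read as a result about the family. The call of CDKN3 in untreated cells was lost when fold changes were centred on the median of expressed genes (adjusted p = 0.0587), and under gemcitabine those of CDKN2C, CDKN3 and SKP2 were lost when the effect was taken from the other tables (adjusted p = 0.189, 0.268 and 0.350), at nearly the same log2 fold changes of 0.64, -0.45 and -0.49.

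Gemcitabine changed 3 of 7 in shCTRL cells, CDKN1A and CDKN2D up and CDKN1B down, where 28.0% of 20002 genes changed, 14.5% up and 13.5% down; the medians were 0.02 over the members and -0.01 over all genes. The call of CDKN2D was lost when taken from the other tables (adjusted p = 0.0978). In shE4F1 cells none of the 7 passed the normal test on the difference of tables, none had an unadjusted p under 0.05, and none passed by the longer route through 3 tables; 1.11% of 21080 genes passed, 0.925% higher and 0.185% lower. This comparison counts the untreated shCTRL libraries in both tables, so its SE is too large. With hairpin and drug together against untreated shCTRL cells, CDKN1B was up and CDKN3 down (per the authors' deposited table -0.62, SE 0.18, adjusted p = 0.00330), 2 of 7 where 32.2% of 19724 genes changed, 15.8% up and 16.3% down, and taken from the other tables the call of CDKN3 was lost (adjusted p = 0.0528). CDKN2C stood at 0.55 (SE 0.23, adjusted p = 0.0533) there and passed once genes with a mean under 50 were left out (adjusted p = 0.0407).

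**Figure D3:**
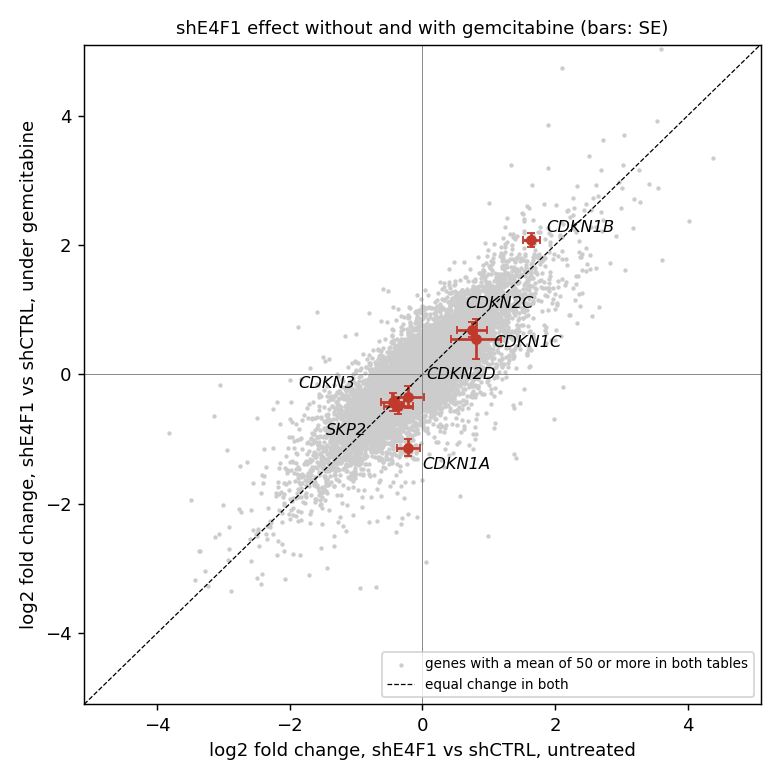
Each grey point is a gene with a mean normalized count of 50 or more in both tables, placed by its shE4F1 effect in untreated cells (x, log2) and under gemcitabine (y, log2); red points are the 7 measured members with their SE, CDKN1C among them although its mean is under 50. CDKN1B lies at 1.65 and 2.08, and CDKN1A lies below the line of equal change at -0.21 and -1.13.

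The genes around the inhibitors were taken as lists by role, of which the machinery of SKP2 comes first. Of 10 genes of the SCF-SKP2 ligase and its partners, 3 fell with shE4F1 in untreated cells and none rose (median -0.14), which is near the 36.7% of all genes that changed: CKS1B, the p27 adaptor of SKP2, fell by 3.35 (SE 0.16), and of the ubiquitin-conjugating enzyme genes UBE2R2 fell by 2.16 (SE 0.14) and CDC34 fell by 0.87 (SE 0.21) in the authors' deposited table. Under gemcitabine CKS1B fell by 2.73 (SE 0.11) and UBE2R2 fell by 1.85 (SE 0.14), and CUL1, the scaffold, rose by 0.53 (SE 0.10) in the authors' deposited table (median -0.08), 3 of 10 called where 41.0% of all genes were; taken from the other tables the call of CUL1 was lost (adjusted p = 0.0549). The linker SKP1 and the RING subunit RBX1 passed in neither deposited table of the authors, at 0.36 (SE 0.16, adjusted p = 0.0702) and 0.03 (SE 0.20, adjusted p = 0.921) in untreated cells. SKP1 passed once fold changes were centred (0.41, adjusted p = 0.0390). The fall of CKS1B was smaller under the drug by 0.63 (SE 0.19, adjusted p = 0.0272), a call that centring ended (adjusted p = 0.0725), as did the other tables (adjusted p = 0.448).

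Of 9 other genes that act on p21 or p27 turnover, 2 rose and 1 fell with shE4F1 in untreated cells (median -0.10), and 3 rose and 1 fell under gemcitabine (median -0.11). Both counts are near the shares of all genes, 36.7% and 41.0%. UHMK1, a kinase that phosphorylates p27, rose by 1.22 (SE 0.13) untreated and by 0.82 (SE 0.09) under the drug in the authors' deposited tables. UBAC1, a subunit of a cytoplasmic ligase for p27, rose by 0.49 (SE 0.16) and 0.75 (SE 0.13) there. DTL, which brings p21 to a CUL4 ligase, fell by 1.31 (SE 0.17) and fell by 1.19 (SE 0.11) in the authors' deposited tables. In shCTRL cells DTL rose with gemcitabine by 1.94 (SE 0.17) and CUL4A, the scaffold of that ligase, fell by 0.89 (SE 0.14) in the authors' deposited table. DTL was also higher with the drug in shE4F1 cells (2.08, SE 0.24, adjusted p = 8.91e-14).

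The kinases and cyclins that the inhibitors bind changed in both directions. With shE4F1 in untreated cells 4 of 10 fell and 2 rose (median -0.38, CCND2 having no row): CDK2 fell by 1.47 (SE 0.18) and CCNA2, cyclin A, fell by 0.71 (SE 0.18), while CCND1, cyclin D1, rose by 0.54 (SE 0.12) and CDK6 by 0.50 (SE 0.18) in the authors' deposited table. Under gemcitabine 6 fell and 3 rose (median -0.51). The shares over all genes were 36.7% untreated and 41.0% under gemcitabine. Under the drug CDK2 fell by 1.61 (SE 0.14) and CCNE1, cyclin E1, fell by 1.28 (SE 0.15), and CCND1 rose by 0.70 (SE 0.12) and CCND3 by 0.36 (SE 0.12) in the authors' deposited table, the last lost when taken from the other tables (adjusted p = 0.440). CDK6, higher with shE4F1 in untreated cells, fell by 0.46 (SE 0.10, adjusted p = 5.26e-05) under gemcitabine in the authors' deposited table, a call lost when taken from the other tables (adjusted p = 0.250). CCNE1 was at -0.36 (SE 0.24, adjusted p = 0.249) in untreated cells in the authors' deposited table, so its decrease was the greater under the drug. The treated effect less the untreated one was -0.96 (SE 0.20, adjusted p = 0.000313) for CDK6 and -0.92 (SE 0.28, adjusted p = 0.0261) for CCNE1; as the difference of drug effects neither passed (adjusted p = 0.158 and 0.551).

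In shCTRL cells gemcitabine raised 4 of these 10 and lowered 3 (median -0.05), where 28.0% of all genes changed. CCNE2, cyclin E2, rose by 1.89 (SE 0.26) and CCNE1 by 1.06 (SE 0.22), while CCNA2 fell by 1.09 (SE 0.20) and CCNB1, cyclin B1, fell by 1.09 (SE 0.19) in the authors' deposited table. Of the pocket proteins that the kinases phosphorylate, RB1 rose with shE4F1 by 0.41 (SE 0.15, adjusted p = 0.0148) in untreated cells and by 0.41 (SE 0.11, adjusted p = 0.000719) under gemcitabine in the authors' deposited tables, the second lost when taken from the other tables (adjusted p = 0.273). RBL2 fell by 0.37 (SE 0.14, adjusted p = 0.0312) in untreated cells in the authors' deposited table, a call that centring ended (adjusted p = 0.0756). With gemcitabine in shCTRL cells RBL1 rose by 0.73 (SE 0.16) and RBL2 fell by 0.60 (SE 0.14) in the authors' deposited table.

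Among 19 transcription regulators of inhibitor genes, 6 rose and 4 fell with shE4F1 in untreated cells (median 0.02), and 9 rose and 8 fell under gemcitabine (median 0.14). The shares of all genes that changed were 36.7% and 41.0%. FOXO1, a forkhead factor known to activate CDKN1B, rose by 1.04 (SE 0.15) and TP73 by 0.96 (SE 0.24), while KLF4, known to activate CDKN1A, fell by 1.23 (SE 0.23) and E2F1 fell by 0.84 (SE 0.16), in untreated cells in the authors' deposited table. Under gemcitabine FOXO1 rose by 1.70 (SE 0.10) and the Polycomb gene CBX7 by 1.36 (SE 0.15), while ZBTB17, the MYC partner MIZ1, fell by 1.05 (SE 0.13) and MDM2, the p53 ligase, fell by 1.04 (SE 0.11) in the authors' deposited table. Gemcitabine in shCTRL cells raised 7 and lowered 7 (median -0.07), against 28.0% of all genes in either direction: E2F1 rose by 1.31 (SE 0.14) and ZBTB17 by 1.16 (SE 0.19), and FOXO1 fell by 1.42 (SE 0.16) and FOXO4 fell by 0.77 (SE 0.21) in the authors' deposited table.

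The knockdown effect on FOXO1 was larger under the drug by 0.66 (SE 0.18, adjusted p = 0.0112), and as the difference of drug effects this did not pass (adjusted p = 0.575). TP63 changed direction: with shE4F1 it rose by 0.61 (SE 0.23, adjusted p = 0.0243) in untreated cells and fell by 0.47 (SE 0.12, adjusted p = 0.000402) under gemcitabine in the authors' deposited tables, the second lost when taken from the other tables (adjusted p = 0.428). KLF6, another activator of CDKN1A, was at 0.19 (SE 0.17, adjusted p = 0.429) in untreated cells and fell by 0.68 (SE 0.10, adjusted p = 1.88e-10) under gemcitabine there. The treated effect less the untreated one was -1.09 (SE 0.26, adjusted p = 0.00182) for TP63 and -0.87 (SE 0.20, adjusted p = 0.00108) for KLF6, both lost as the difference of drug effects (adjusted p = 0.317 and 0.227).

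**Figure D4:**
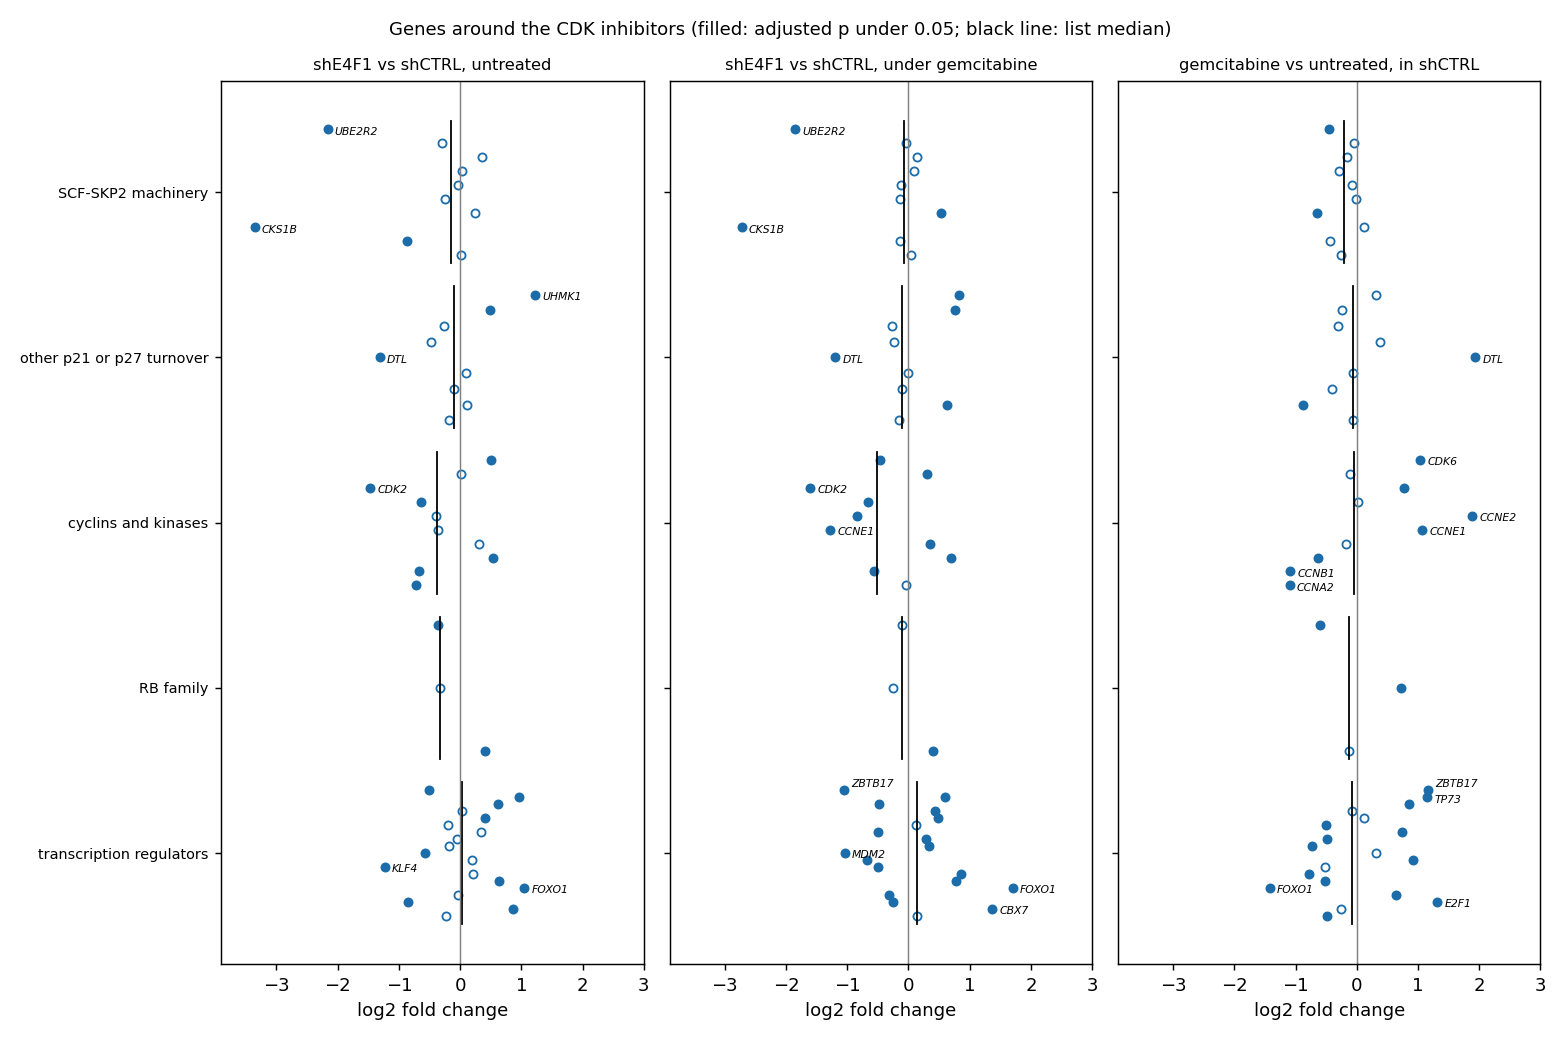
Log2 fold changes of the genes of 5 lists (rows of points, 1 point per gene) in 3 comparisons (panels); filled points passed an adjusted p of 0.05, black lines are list medians, and genes that passed with a change of at least 1 are named. CKS1B and UBE2R2 lie far left in both shE4F1 panels, and DTL and CCNE2 lie to the right in the shCTRL gemcitabine panel.

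Genes whose changes were most like those of each member were sought among 12448 genes that reached a mean of 50 in all 4 tables, by Euclidean distance over the 4 deposited log2 fold changes. The nearest to CDKN1B were KIAA1462 at a distance of 0.0646 and CXXC4 at 0.0834. CDKN1A had LINC00601 at 0.0925 and SERTAD1 at 0.117. The nearest to CDKN2C were CHD9 at 0.0351 and MAP4K4 at 0.0560, and CDKN2D had NAA40 at 0.100 and CCDC137 at 0.134. CDKN3 had TBRG4 at 0.0403 and SNRPA1 at 0.0464, and SKP2 had MOCS1 at 0.0525 and PIK3R4 at 0.0578. CDKN1C, with its mean under 50, was not compared. The 4 tables share libraries, so likeness carries no test.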

How the data were processed

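RNA of 12 libraries, 3 per group, was read from one end over 50 bases, per the labels. The submitters' processing notes name DESeq2 1.14.1 (in R 3.4.0), HTSeq 0.9.0, TopHat2 2.1.1 and Bowtie2 2.2.9, besides FastQC and bcl2fastq, and the build GRCh38.p7. The sources used here do not give the annotation release, strand setting, filters or model formula.

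The 4 deposited tables give, per the file headers, the mean normalized count (a signal: counts divided by the authors' size factors and averaged), the log2 fold change with its SE, a Wald score, and the Wald p-value, raw and adjusted, as the authors' DESeq2 wrote them. A deposited count table was not used: the names of its 12 columns match no label, so depth and spread per library are unknown here.

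Group levels were solved from mean and fold change, taking equal numbers of libraries per group and each fold change as a plain ratio of group means. The sources used here do not state whether the authors' fit shrank the fold changes. The SEs of scarce genes were small for their counts, as such a fit would give (ESR1, mean 4.95, SE 0.44 for gemcitabine in shCTRL cells). If it did, the quoted fold changes and intervals are drawn toward no change. The differences between comparisons are then affected too, and the implied levels are not exact group means. The drug effect in shE4F1 cells (hairpin plus drug minus hairpin untreated) and the difference between knockdown effects were computed from pairs of tables. Variances were summed, with a two-sided normal test and Benjamini-Hochberg adjustment over all genes. Only the difference between knockdown effects was run on simulated data. The noise there was drawn from the same SEs that the test uses, so that run could not check the SEs. Intervals are normal 95% intervals. Python 3.11.15, numpy 2.4.6, pandas 2.3.3, scipy 1.17.1 and matplotlib 3.10.9 were used; gene positions are from GENCODE 29. Members and lists were chosen with earlier results of these data known. Named were all members and, per list and comparison, up to 2 of the largest called rises and falls, besides genes named to complete a count or a list's neighbours.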

Additional observations from a re-analysis of the deposited data

Results flagged for a closer look

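CDKN1A is flagged because its response to shE4F1 differed between the conditions: the log2 fold change with shE4F1 under gemcitabine minus that in untreated cells was -0.92 (SE 0.22, adjusted p = 0.00144, normal test on the difference of tables that share no library). It was the 1 member of 7 that passed this test, which 5.43% of 20923 genes passed. The call was lost when the same contrast was taken as the difference of the drug effects, as given above.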

How the results depend on the processing

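Over the 42 member results (7 members in 6 comparisons), 183 alternative values were computed and 172 kept direction and call; 8 lost the call, 2 gained it and 1 changed sign. The sign change was CDKN3 in the difference between knockdown effects, at -0.061 after centring, against 0.02 without it. Taken from the other tables, 2 members in place of 5 were called for shE4F1 under gemcitabine, 1 in place of 2 for hairpin and drug together, and 0 in place of 1 for the difference between knockdown effects. By that route the genes called fell in number to 3642 in place of 9202 for shE4F1 under gemcitabine, 3028 in place of 5599 for gemcitabine in shCTRL cells, 142 in place of 234 for gemcitabine in shE4F1 cells and 130 in place of 1137 for the difference. Its variances add libraries that cancel, so its SE is larger by construction. At an adjusted p under 0.01, 145 and 601 genes were called in these last 2 comparisons. No paired analysis was possible because the columns of the count table cannot be tied to samples, and leaving out single replicates and the fit on counts were not run for the same reason. Precision is limited by the number of libraries and, for CDKN1C, by its low count.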
